A study of Drosophila melanogaster with 4 samples.

Results

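The genes described here are 8 that control whether female germline stem cells of Drosophila melanogaster differentiate: bam, bgcn, otu, Sxl, pum, brat, mei-P26 and Rbfox1. They were chosen by name from 14777 genes in the deposited tables, and each gene's value is the sum over its RefSeq transcripts. Total RNA of ovaries, depleted of ribosomal RNA, was sequenced in 4 libraries, 2 controls with a hairpin against the eye-colour gene w (white-embKD, genotype vasa-GAL80[ts]/+;;da-GAL4/shwhite) and 2 knockdowns with a hairpin against piwi (piwi-embKD, vasa-GAL80[ts]/+;;da-GAL4/shpiwi). Piwi is an Argonaute protein that, guided by piRNAs, silences transposons in the nucleus, and the study asked what its loss in the embryo does to the adult ovary. In both groups da-GAL4, a driver under the broadly active daughterless promoter, switched on the hairpin. A heat-sensitive inhibitor of GAL4 under a germline promoter, vasa-GAL80[ts], held the hairpin back in the germline. Flies of both groups were kept at 18 °C and their embryos were moved to 28 °C. Neither the age of the adults nor their later temperature is given in the labels. Each group carried its own hairpin line, so a difference between the lines and an effect of the knockdown cannot be told apart.

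A germline stem cell sits beside somatic cap cells whose BMP signal keeps the bam gene silent. When a daughter cell leaves the niche, bam is switched on, and the Bam protein, with its partner Bgcn, represses the translation of messages that hold the cell in the stem state. Sxl and Mei-P26 work with Bam in this step, Pum and Brat repress different messages before and after it, and Otu and Rbfox1 are needed for the young cyst to go on developing. Since bam and bgcn act in the few cells at the tip of each ovariole, a change in the number of those cells and a change in RNA per cell cannot be told apart in whole ovaries.

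Depth was inferred from the smallest step between values and lay between 16194219 and 20025084 effective counts per library. A level below is a normalized effective count, in columns that summed to between 970339.8 and 1017515 per library. The piwi gene was at 410.0 and 401 in control replicates 1 and 2, against 238 and 121 in knockdown replicates 1 and 2 (log2 change -1.25, limma adjusted p = 0.0562). Its log2 change was -1.73 without knockdown replicate 1 and -0.77 without knockdown replicate 2. With a knockdown left out, the white pair alone gives the spread and more features pass, so only log2 changes are given for single genes. The white gene, w, was low, at 1.35 and 1.19 against 3.34 and 2.87 (limma adjusted p = 0.1). Its log2 change was 0.77 without knockdown replicate 1 and 0.94 without knockdown replicate 2. Transposon signal made up 0.395% and 0.406% of the controls, against 2.58% and 3.61% of the knockdowns. The libraries of a pair correlated at r = 0.995 (white) and r = 0.976 (piwi) on the log2 scale, across features, which are no replicates.

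No differentiation gene passed the test in either direction, and the group means of the 7 tested differed by ratios from 0.894 for Sxl to 1.28 for otu. Of the 8 members, 7 reached the filter on low values and bgcn did not. Among the 7, limma placed 0 higher and 0 lower in piwi-embKD at an adjusted p under 0.05, where 6.85% of all 8118 features tested passed. Before adjustment, 2 members had a limma p under 0.05 and a higher level, otu and pum, and 0 had a lower one, where 13.3% of all features were higher and 11.8% lower at that p. The log2 changes, piwi-embKD minus white-embKD, ran from -0.16 for Sxl to 0.35 for otu, with a median of -0.05 against -0.04 over all features tested. The groups of libraries did not overlap for 5 of the 7 members (71.4%), against 59.0% of all features tested.

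**Figure D1:**
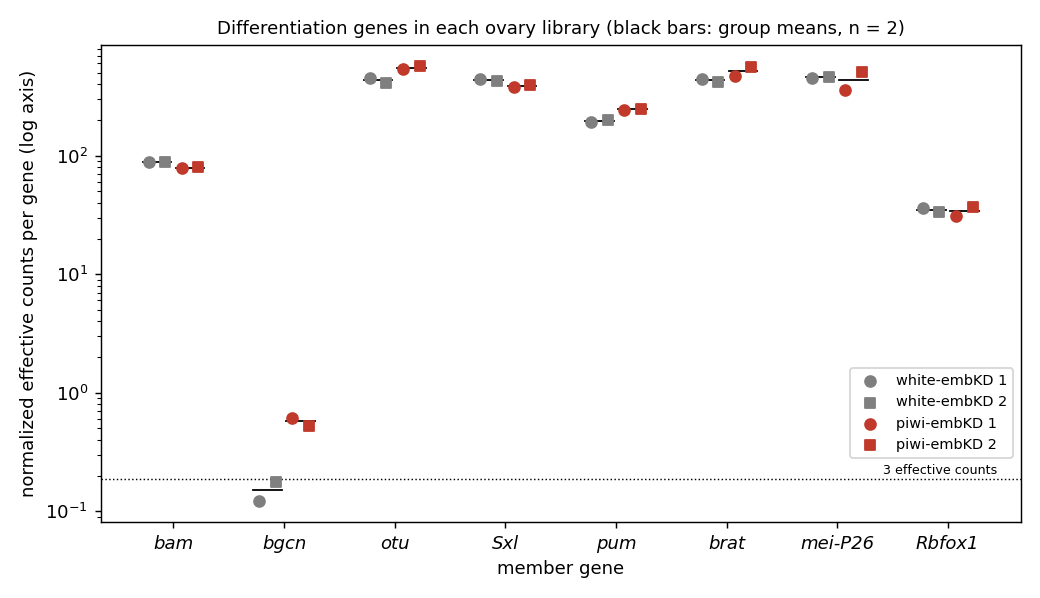
Level of each member gene in each library, in normalized effective counts on a log axis, with white-embKD in grey, piwi-embKD in red, circles for replicate 1, squares for replicate 2 and black bars for the group means. Except for bgcn, near the dotted line that marks the highest of the 4 values worth 3 effective counts, the 4 libraries of a gene lie close together.

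The bam gene, on chromosome arm 3R, encodes the factor that is enough to make a stem cell differentiate. Its single transcript stood at 88.1 and 88.0 in the controls, against 78.8 and 79.7 in the knockdowns. Both knockdowns lay below both controls, and each pair differed by less than the gap between the groups. The means were 88.0 ± 0.078 and 79.3 ± 0.66 (SD, n = 2 each), a ratio of 0.900. In limma, whose estimate of spread draws on all features, the log2 change was -0.15 (SE 0.09, adjusted p = 0.348), and the 95% interval of the piwi to white ratio ran from 0.773 to 1.051. In the BDGP6 annotation CG11854, on the opposite strand, shares 11.5% of the bam exon bases, and it was listed at 0 in all 4 libraries.

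The bgcn gene, on chromosome arm 2R, encodes an RNA helicase-like protein that binds Bam. It was close to the limit of detection, at 0.12 and 0.18 in the controls, against 0.62 and 0.53 in the knockdowns. These values correspond to 2.5 and 3.5 effective counts in the controls, against 9.8 and 8.6 in the knockdowns, so both knockdowns were higher. The controls were at about the level that a count of 0 allows (3 effective counts, a value of 0.148 and 0.151). From 6 pooled counts against 18, rounded to whole numbers and set against depth, the ratio was 3.73 with a 95% Clopper-Pearson interval of 1.42 to 11.5. That interval takes effective counts as read counts, which could not be recovered, so it is a rough guide only. It covers counting error and not the spread between ovaries, and bgcn was left out of the test. It was named through 1 of its 2 RefSeq transcripts, and the other was not analysed here.

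The otu gene, on the X chromosome, encodes a deubiquitinase whose loss gives ovarian tumours of undifferentiated germ cells. It stood at 451 and 411 in the controls, against 535 and 567 in the knockdowns, so the piwi pair was above the white pair. The means were 431 ± 28.3 and 551 ± 23.0 (SD, n = 2 each), a ratio of 1.28. The log2 change of 0.35 (SE 0.10) was the largest among the tested members and did not pass (limma adjusted p = 0.0924). Its 95% interval in ratio ran from 1.085 to 1.505, before adjustment for the number of features. The log2 change of otu was 0.40 without knockdown replicate 1 and 0.31 without knockdown replicate 2. In these fits the white pair alone gave the spread between libraries of a group. On the opposite strand the gene CG33181 shares 4.74% of the otu exon bases, and it stood at 70.1 and 61.6 against 77.5 and 75.5. No source used here states the strand setting of the counting, so reads of that stretch cannot be assigned.

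The Sxl gene, on the X chromosome, encodes the RNA-binding protein that sets female identity and that acts with Bam on the message of nanos. It stood at 442 and 424 in the controls, against 377 and 397 in the knockdowns. The piwi pair lay below the white pair, with means of 433 ± 13.1 and 387 ± 14.6 (SD, n = 2 each). The ratio was 0.894, with a 95% interval of 0.768 to 1.04, for a log2 change of -0.16, SE 0.09 (adjusted p = 0.311 in limma).

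The pum gene, on chromosome arm 3R, encodes a repressor of translation that acts with Nanos to keep stem cells from differentiating. It stood at 194 and 198 in the controls, against 242 and 248 in the knockdowns, so the groups were apart and each pair was tight. The means were 196 ± 3.18 and 245 ± 4.14 (SD, n = 2 each), a ratio of 1.25 with a 95% interval from 1.081 to 1.445. The log2 change of 0.32 (SE 0.09) did not pass (limma adjusted p = 0.0854). It was 0.34 without knockdown replicate 1 and 0.30 without knockdown replicate 2.

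The brat gene, on chromosome arm 2L, encodes a TRIM-NHL protein that partners Pum once the daughter cell has left the niche. It stood at 447 and 419 in the controls, against 472 and 558 in the knockdowns. The piwi pair was above the white pair, but its members differed from each other by more than piwi-embKD replicate 1 differed from either control. The means were 433 ± 20.0 and 515 ± 60.8 (SD, n = 2 each), a ratio of 1.19 (log2 change 0.24, SE 0.11, limma adjusted p = 0.239). Dropping knockdown replicate 1 gave brat a log2 change of 0.37, and dropping knockdown replicate 2 gave 0.12.

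The mei-P26 gene, on the X chromosome, encodes a second TRIM-NHL protein, which binds Bam and Sxl and limits growth and division of the cyst. It stood at 453 and 463 in the controls, at 358 in piwi-embKD replicate 1 and at 505 in piwi-embKD replicate 2. The knockdowns lay on either side of the white pair, and the piwi pair differed 1.41-fold. The means were 458 ± 6.96 and 432 ± 104 (SD, n = 2 each). The log2 change was -0.11, with an SE of 0.16 and a limma adjusted p of 0.711. Without piwi-embKD replicate 2 the log2 change was -0.35, and without piwi-embKD replicate 1 it was 0.14, so the direction for mei-P26 rests on a single library.

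The Rbfox1 gene, on chromosome arm 3L, encodes an RNA-binding protein whose cytoplasmic form represses the pum message in differentiating cysts. It stood at 36.5 and 33.7 in the controls, against 30.9 and 37.0 in the knockdowns, and the groups overlapped. The means were 35.1 ± 1.98 and 34.0 ± 4.31 (SD, n = 2 each), a ratio of 0.969 with a 95% interval of 0.774 to 1.207, for a log2 change of -0.05, SE 0.13 (adjusted p = 0.841 in limma). The log2 change turned to 0.01 without white-embKD replicate 1 and to 0.08 without piwi-embKD replicate 1.

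**Figure D2:**
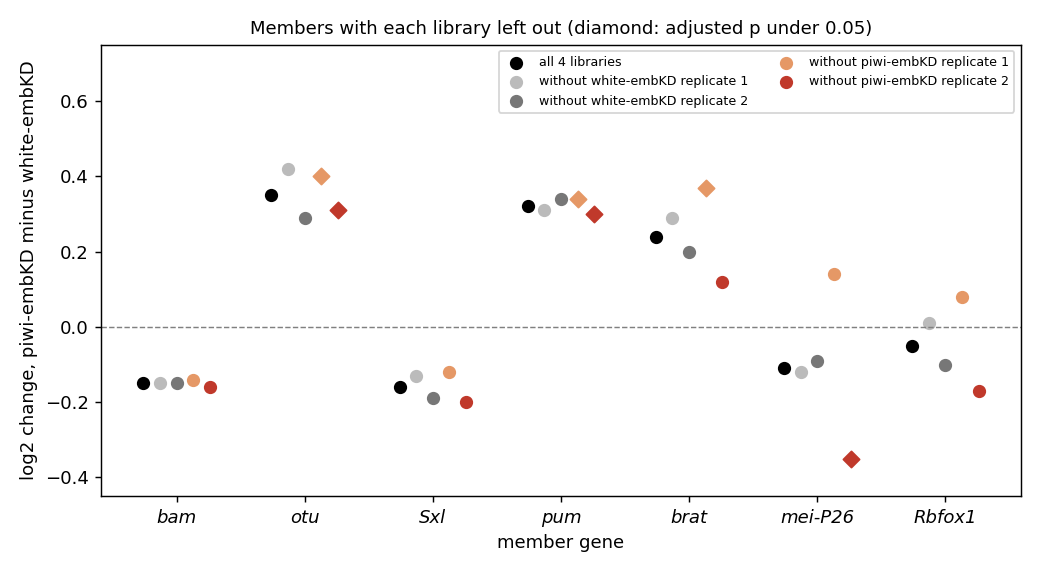
Log2 change of each tested member, piwi-embKD minus white-embKD, with all 4 libraries (black) and with each library left out in turn, where diamonds mark an adjusted p under 0.05. With a knockdown left out, the white pair alone gave the spread, so diamonds there are not read as calls. The values of bam, Sxl, otu, pum and brat stay on their side of 0, while mei-P26 ranges from -0.35 to 0.14 and Rbfox1 from -0.17 to 0.08.

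Levels of different genes were set side by side per kilobase, using transcript lengths of the BDGP6 annotation, which is not the authors' build (dm3). Per kilobase of the median annotated transcript, Sxl stood at 153 and 147 normalized effective counts in the controls and otu at 145 and 132. In the knockdowns otu, at 171 and 182, was above Sxl, at 130.3 and 137. Next came brat at 90.1 and 84.4 in the controls, mei-P26 at 64.1 and 65.5, bam at 45.3 and 45.2, pum at 28.8 and 29.5, Rbfox1 at 9.24 and 8.53, and bgcn at 0.030 and 0.043. Part of this order depends on the length used. Per kilobase of the longest annotated transcript, otu was above Sxl in the controls too, at 139 and 127 against 74.2 and 71.1, and in the knockdowns at 165 and 175 against 63.2 and 66.6. With that length bam was above brat, at 37.0 and 34.7 in the controls, and mei-P26, at 19.7 and 20.1, was close to pum, at 19.0 and 19.4. In the knockdowns with that length, mei-P26 at 15.5 and 21.9 lay below pum at 23.7 and 24.3, and brat at 39.0 and 46.1 lay on either side of bam at 40.5 and 41.0. With either length otu and Sxl were the highest, brat was above pum, and Rbfox1 and bgcn were the lowest.

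Most members have several transcripts, and 55 of the 61 RefSeq transcripts of these genes were analysed here, with 24 for Sxl alone. Shares of a gene below are shares of its effective counts, which grow with length and are divided between transcripts by a model. Fitted as separate rows, 43 of the 55 reached the filter and limma called 0 of them, where 0.615% of the 14790 rows tested passed. Before adjustment, 5 had a limma p under 0.05 and a higher level and 5 a lower one, where 8.52% and 6.94% of all rows did. The libraries were apart with piwi above for 12 of the 43 (27.9%) and below for 9 (20.9%), near the 24.4% and 25.8% of all rows. Some Sxl transcripts in both lower counts had equal values in each library, so those rows are not separate results. Transcripts also varied more between libraries of a pair than whole genes did. The median absolute log2 difference within the white pair was 0.334 for the 43 transcripts and 0.0617 for the 7 genes, and within the piwi pair 0.265 and 0.0852.

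A single transcript led most genes, and the same one led in every library of otu, Sxl, pum, brat and mei-P26. For otu, NM_167158 held 83.9% and 86.7% of the gene in the controls, against 85.9% and 84.7% in the knockdowns. For Sxl, NM_167111 held 48.5% and 41.7% against 43.5% and 45.5%, and for pum, NM_169258 held 44.6% and 41.9% against 43.4% and 46.2%. These shares overlapped between the groups.

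In mei-P26 the shares of both leading transcripts did not overlap between the groups. The transcript NM_001272448 held 70.4% and 75.8% of the gene in the controls, against 67.9% and 61.8% in the knockdowns, while NM_143765 held 23.5% and 19.4% against 26.1% and 32.4%. Their levels were 319 and 351 against 243 and 312 for NM_001272448, and 106 and 89.8 against 93.6 and 164 for NM_143765. Neither passed on its own (log2 change -0.28 and 0.34, limma adjusted p = 0.422 and 0.583), and the shares themselves were not tested. Together they make up most of the gene, so the fall of NM_001272448 and the rise of NM_143765 are not separate observations. How often shares are apart over all genes was not computed.

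In brat, NM_134302 led in every library, with 45.5% to 49.1% of the gene, followed by NM_057597. The minor transcript NM_206004 stood at 21.3 and 17.9 in the controls, against 32.5 and 39.3 in the knockdowns, which was 4.77% and 4.27% of the gene against 6.90% and 7.05%. Its log2 change of 0.84 (SE 0.19) had an unadjusted p of 0.00617 and an adjusted p of 0.167 in limma. It was the lowest unadjusted p among the 43 transcripts.

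The 5 transcripts with an unadjusted p under 0.05 and a lower level in piwi-embKD were all of Sxl, and some could not be told apart. NM_001169215 and NM_001272375 had equal values in each library (37.4, 40.1, 29.2 and 26.7 in white-embKD replicates 1 and 2 and piwi-embKD replicates 1 and 2), and so did NM_001272374 and NM_167114 (9.73, 17.4, 5.21 and 5.16). The fifth, NM_001169219, stood at 8.60 and 19.2 against 2.63 and 5.20. Their adjusted p in limma lay between 0.239 and 0.258. In Rbfox1 the transcript NM_168413 stood at 11.5, 0.50, 9.79 and 11.4 in the same order, so white-embKD replicate 2 alone was low for it.

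**Figure D3:**
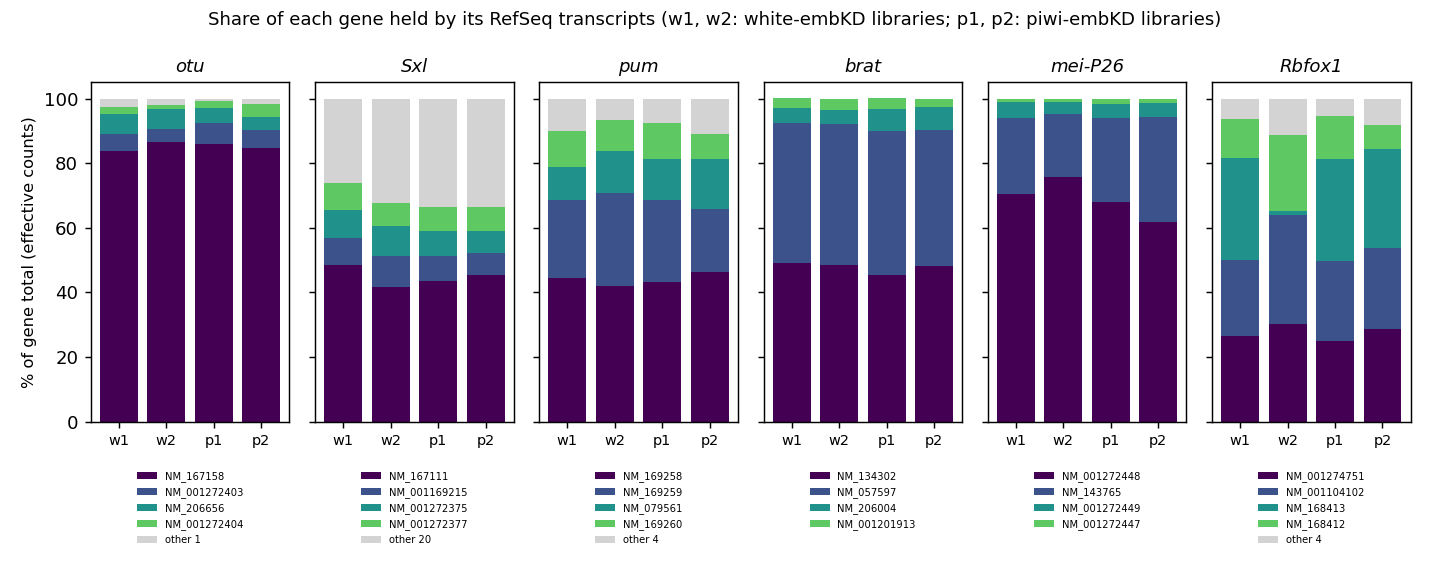
Percentage of each gene's normalized effective counts held by its 4 most abundant RefSeq transcripts, with the rest in grey, in white-embKD (w1, w2) and piwi-embKD (p1, p2) libraries. The leading transcript of otu holds 83.9% to 86.7% in every library, and that of mei-P26 holds less in each knockdown than in either control.

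The wider pathway was read from 4 lists with 40 genes, all of which passed the filter. Limma placed 2 of the 40 higher, tut and Dad, and 0 lower at an adjusted p under 0.05, where 6.85% of all features passed. Before adjustment 8 were higher and 5 lower at that threshold, where 13.3% of all features were higher and 11.8% lower. Their median log2 change was 0.00, against -0.04 over all features.

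Among 8 genes of cyst and oocyte specification, tut rose. It encodes an RNA-binding protein known as a partner of Bam and Bgcn in the male germline of Drosophila. It stood at 33.6 and 31.4 in the controls, against 92.9 and 78.5 in the knockdowns, with a gap between the groups wider than the spread of either pair. The means were 32.5 ± 1.56 and 85.7 ± 10.2 (SD, n = 2 each), a ratio of 2.64 (log2 change 1.37, SE 0.12, limma adjusted p = 0.00226). With each other setting tried on all libraries, tut still passed (limma adjusted p at most 0.0434). Leaving out each library moved its log2 change between 1.25 and 1.49. No other gene's exons overlap those of tut in the BDGP6 annotation. The other 7 were not called. They included alpha-Spec, a spectrin of the fusome that links cyst cells, at a log2 change of 0.51 (limma adjusted p = 0.0713), enc at 0.42 (0.2) and BicD, which carries messages to the oocyte, at -0.30 (0.168). Without knockdown replicate 1 the log2 change was 0.67 for alpha-Spec, 0.67 for enc and -0.18 for BicD. Without knockdown replicate 2 it was 0.35, 0.17 and -0.43.

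Among 11 genes of the BMP signal that silences bam in stem cells, Dad, which encodes an inhibitory SMAD and is itself switched on by the signal, rose. It stood at 9.21 and 9.004 in the controls, against 16.9 and 14.6 in the knockdowns, a ratio of 1.73 (log2 change 0.72, SE 0.15, limma adjusted p = 0.044). Whole ovaries do not show whether it rose in stem cells or in others, and follicle cell markers were also higher in the knockdowns. Dad no longer passed in limma with no filter on low values (adjusted p = 0.145). It also did not pass with either control left out, where the piwi pair alone gave the spread. Its log2 change was 0.74 without control replicate 1 and 0.71 without control replicate 2. It was 0.63 without knockdown replicate 1 and 0.82 without knockdown replicate 2. The ligand genes dpp, at 1.88 and 1.60 against 3.80 and 3.94, and gbb, at 6.17 and 5.92 against 9.48 and 9.75, were higher in both knockdowns and did not pass (limma adjusted p = 0.0892 and 0.0922). Nor did shn, a transcription factor gene of the pathway (log2 change 0.46, limma adjusted p = 0.0548). The 11 genes did not all move up. Before adjustment, 5 were higher and 2 lower at a limma p under 0.05, where 13.3% and 11.8% of all features were. The libraries were apart with piwi above for 5 and below for 3, where 59.0% of all features were apart in either direction. Leaving out each library moved the log2 change of dpp between 0.76 and 0.90, gbb between 0.57 and 0.62 and shn between 0.39 and 0.54. With no intensity trend dpp (0.0213) and gbb (0.0401) passed in limma, and shn passed with the filter 5 times stricter (0.0479) and with median-of-ratios scaling (0.0497).

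Of 12 genes of stem cell maintenance and translational repression, limma called 0, with 1 higher and 2 lower at an unadjusted p under 0.05. Over all features, 13.3% were higher and 11.8% lower at that p. The nanos gene, whose message Bam, Sxl and Mei-P26 repress, stood at 1334 and 1417 in the controls, against 1070.2 and 1006 in the knockdowns. Both knockdowns were lower, and the log2 change of -0.41 (SE 0.10) did not pass (limma adjusted p = 0.0706). Not1, the scaffold of the CCR4-NOT deadenylase, had a log2 change of 0.46 (limma adjusted p = 0.123), and the chromatin remodeller gene Iswi -0.30 (0.114). Leaving out each library moved nanos between -0.45 and -0.36, Not1 between 0.26 and 0.66 and Iswi between -0.35 and -0.24. Of 9 genes of germline sex and ovarian tumours limma called 0, also at an unadjusted p under 0.05, and the largest log2 changes were 0.40 for vir, 0.33 for ovo, which encodes a germline transcription factor that activates otu, and -0.20 for snf, a splicing factor gene (limma adjusted p = 0.252, 0.318 and 0.44). Without knockdown replicate 1 the log2 changes of these 3 were 0.65, 0.61 and -0.41. Without knockdown replicate 2 they were 0.14, 0.04 and 0.01.

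**Figure D4:**
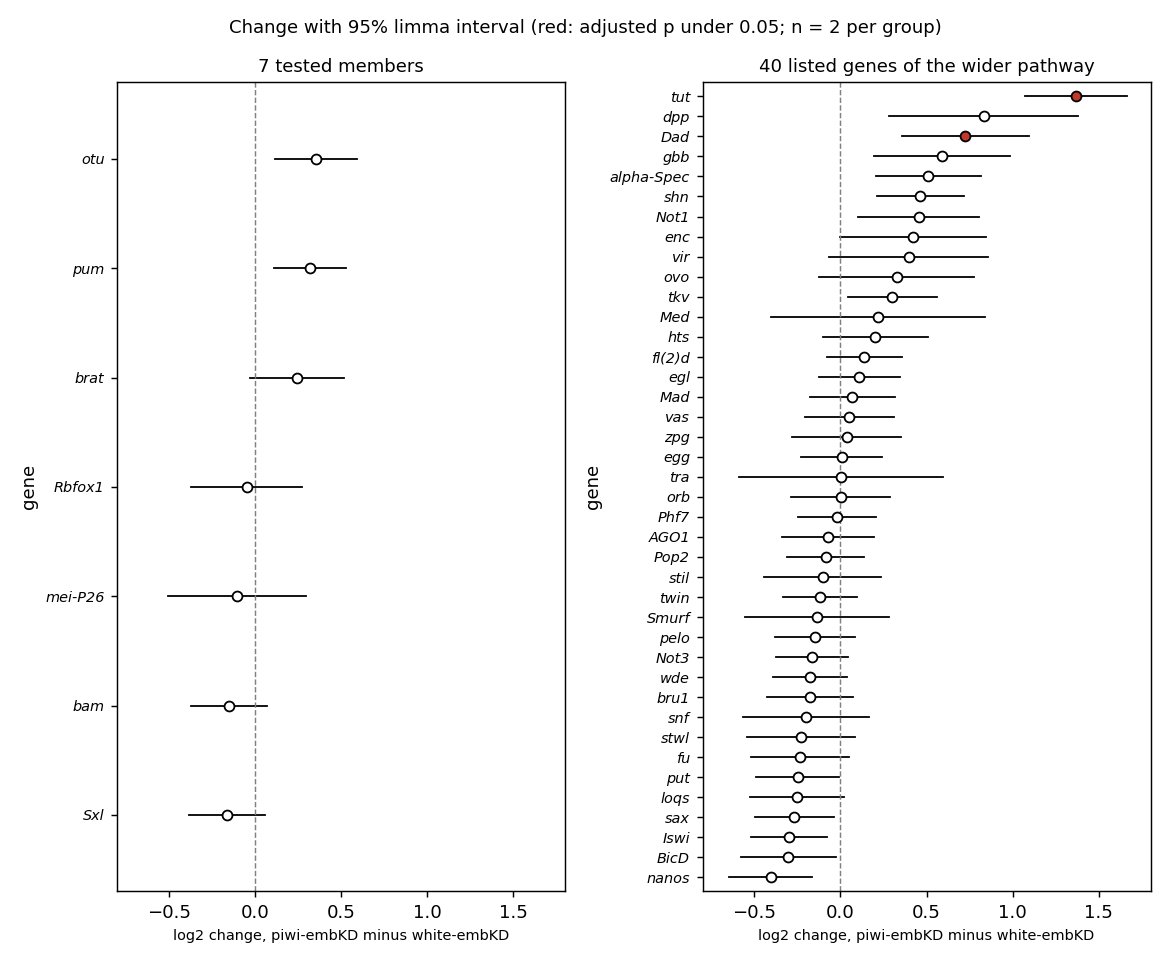
Log2 change, piwi-embKD minus white-embKD, with its 95% limma interval, for the 7 tested members (left) and 40 listed genes of the wider pathway (right), in which red marks an adjusted p under 0.05. The only red points are tut at 1.37 and Dad at 0.72.

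Over the 4 libraries, the genes whose pattern was nearest to that of bam were BORCS6, Dnz1 and Prim2, with root mean square differences of centred log2 values of 0.0059, 0.0062 and 0.0068. With 525 of 7779 genes within 0.05 of bam, a pattern of 4 values is shared by many genes.

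Marker genes of other cell types moved between the groups beside these values. Over all features tested, 6.85% were called in either direction. Before adjustment, 13.3% were higher and 11.8% lower at a limma p under 0.05. Follicle cell markers summed to 1406 and 1364 in the controls, against 3185 and 3207 in the knockdowns, with 5 of 6 tested markers called higher and Yp2 and Yp1 the most abundant. All 10 eggshell genes were higher, with sums of 3543 and 3437 against 9062 and 12450 and with Cp36 and Cp38 leading. Muscle markers summed to 128 and 119.9 against 225 and 186, with 4 of 8 higher and sls and Act57B leading. Gut markers summed to 126 and 106 against 15.6 and 0.554, with 6 of 7 lower and betaTry and LysD leading. Germline messages of later stages summed to 5422 and 5128 against 4671 and 4528, with 0 of 8 called, 0 higher and 3 lower at an unadjusted p under 0.05 in limma, and osk and exu leading. Escort and cap cell markers summed to 2.25 and 3.37 against 4.37 and 4.23. Of these 7 markers, 5 were under the filter and 0 were called, and bab2 and ptc were the most abundant. Nerve markers summed to between 7.58 and 11.6, with the defining synaptic genes nSyb, Syt1, brp and VGlut at 0.254 or less in every library, Cadps lower and elav at 4.84 and 4.30 against 6.81 and 5.05. Several members, among them pum, brat and Rbfox1, are also known in muscle or nerve. The part of these shifts in the values of the members and of the pathway genes was not tested.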

How the data were processed

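Per the file headers and names, the authors deposited a signal for each of 29637 targets and each library, an eXpress effective count times a factor that is not explained. The submitters' processing notes name Bowtie2, STAR, Cufflinks and build dm3 without role or version. RNA was extracted with TRIzol and 4 µg per library was depleted with Ribo-Zero, then read as 150 nt pairs on an Illumina NextSeq, per the labels' protocols. Annotation, strand setting and filters: not given in the sources used here. The series' design text describes independent biological replicates, and groups came from sample titles.

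Depth rests on the assumption that the smallest step of each column is 1e-06 of an effective count. Between 1.94% and 2.32% of effective counts from 0.5 to 15 lay within 0.01 of a whole number, so whole reads could not be recovered. A count model was therefore not used, except for the bgcn interval. Of 29511 transcripts, 28595 (96.9%) were named with an NCBI RefSeq gene table (Release 6, used for names and chromosome arms) and summed per gene. White-embKD and piwi-embKD were set against each other with limma (version 3.58.1, under R 4.3.3) and its intensity trend. The scale was log2(value + 0.995), the pseudocount being the mean column total divided by 1e+06. This scale understates changes of low genes. The test took features whose mean reached 0.995 (7780 genes, 107 transposon families and 231 unmatched transcripts), two-sided, with Benjamini-Hochberg adjustment over all 8118. The steps were tested on simulated data. The members and lists were chosen with earlier results of these data known. Named beside the members were, per pathway list, the called genes and the 3 others of largest change, and, per marker list, the 2 most abundant. Alternatives changed pseudocount, filter, scaling, trend, block, libraries and summing. No sequence is printed.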

Additional observations from a re-analysis of the deposited data

How the results depend on the processing

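With 7 other settings of pseudocount, filter, scaling, trend and replicate block, each of the 7 tested members kept its direction and did not pass. Leaving out each library in turn moved the log2 change of otu between 0.29 and 0.42, pum between 0.30 and 0.34, brat between 0.12 and 0.37, mei-P26 between -0.35 and 0.14 and Rbfox1 between -0.17 and 0.08. Rbfox1 turned to 0.01 without white-embKD replicate 1 and 0.08 without piwi-embKD replicate 1, mei-P26 to 0.14 without piwi-embKD replicate 1, and snf to 0.01 without piwi-embKD replicate 2 (range -0.41 to 0.01). The count of members called ran from 0 to 3 higher and from 0 to 1 lower. When a library was left out, its group's remaining library was taken to vary like the other pair. Over all features 420 were higher and 136 lower. Leaving out each library gave 185 to 1354 higher and 23 to 1525 lower, no filter on low values 82 and 23, and unsummed transcripts 81 and 10. Among listed pathway genes 2 were higher, with 1 for no filter, 4 for no trend and 5 for the replicate block, and leaving out each library gave 1 to 13 higher and 0 to 6 lower. Among cell type markers 19 were higher and 7 lower, with 10 and 3 for no filter, 4 lower for the stricter filter, and leaving out each library gave 11 to 25 higher and 5 to 12 lower. The cause of these shifts was not tested. With the replicate number as a block, 225 features were lower and 586 higher, and no member's call changed (adjusted p = 0.0944 for otu and 0.109 for pum in limma). Same-numbered libraries deviated together at a correlation of 0.0576 across features and no label ties equal numbers to a shared source, so the libraries were not treated as pairs, and a pairing of these 4 libraries was not settled by that value. Under the block piwi (adjusted p = 0.00113), Not1 (0.0418), alpha-Spec (0.0321) and shn (0.0382) passed in limma. With the stricter filter piwi (0.0423) and with no intensity trend w (0.0233) passed in limma. Depth limits bgcn, whose control values lie near 3 effective counts.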
